A study of Mus musculus with 14 samples.

Results

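SMAD4 sites are the genomic intervals where CUT&Tag with an antibody against SMAD4 gave a reproducible peak in mouse muscle stem cells (MuSCs) treated with BMP6 or with vehicle. All peaks of both consensus lists were taken, 12860 from BMP6-stimulated cells and 8577 from vehicle-treated cells, and overlapping peaks were merged into 15191 sites. These were 2 of the 6 peak lists of the experiment, which held 175565 peaks together, and 4 of its 14 libraries. CUT&Tag directs the Tn5 transposase to chromatin-bound antibodies, so that DNA is cut and tagged near the bound protein. The other lists, for pSMAD1/5/9 and H3K27ac, were used only as further readouts at the SMAD4 sites.

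Both groups had the same background. The cells came from skeletal muscle of female mice, 9 weeks old, of the genotype C57BL/6N(Tg(Pax7-EGFP)Tajb), and were sorted for the GFP that marks Pax7 expression after 1 day in culture. All cells, controls included, were starved of serum for 6 h with 200 ng/mL of the soluble receptor BMPR-1A-Fc, which binds BMPs in the medium. Stimulation with 100 ng/mL BMP6 lasted 1 h, the controls being given vehicle (HCl at 4 mM and BSA at 0.1%) over the same time, and 100000 cells per condition were fixed in 0.1% formaldehyde. Each group had 2 biological replicates, and the labels do not say whether these came from separate animals, so p-values measure only the spread between these samples. These were cultured cells that had left their niche, and a peak list from them describes a mixed population of sorted cells. An H3K27ac peak overlapped the 2 kb on either side of the transcription start site (TSS) for 8 of 8 markers of MuSCs and myoblasts in both conditions. The same held for 0 of 4 endothelial markers, for 1 of 4 fibro-adipogenic markers (Dpt) and for 1 of 3 smooth muscle markers (Acta2) in both conditions. Of 4 blood cell markers, none had such a peak with BMP6 and 1 (Csf1r) had one with vehicle.

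BMP ligands signal through a receptor complex at the cell surface that activates the receptor SMADs of the BMP branch, detected here as pSMAD1/5/9. These pair with SMAD4, which is shared with the TGF-β branch of the pathway, and the complex binds DNA at GC-rich sites and at the short SMAD box. In many tissues the Id genes, Smad6 and Smad7 are direct targets, and in MuSCs BMP signaling is known to hold back differentiation, in which Pax7 marks the stem cell state and Myod1 and Myog drive the muscle program.

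The sequences below show 200 bp centred on SMAD4 summits on GRCm39, read 5′ to 3′ on the plus strand. They were chosen to show sites at the Id genes, sites among the strongest of each list, and a large rise and a large fall in rank. The first 3 are those summits near Id1 and Id3 that hold the composite element, a BMP-responsive SMAD site (GGCGCC or GGAGCC) followed 5 bases later by GTCT. The composite is in capitals, and in the Id1 window it reads on the minus strand. They lie in intergenic sequence, downstream of Id3, upstream of Id3 and upstream of Id1.
Id3, summit 4483 bp downstream of the TSS (chr4:135875191-135875390, plus strand): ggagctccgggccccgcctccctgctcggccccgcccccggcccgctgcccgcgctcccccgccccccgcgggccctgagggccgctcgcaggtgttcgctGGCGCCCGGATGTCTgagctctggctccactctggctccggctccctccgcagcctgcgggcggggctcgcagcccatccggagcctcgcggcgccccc
Id3, summit 3000 bp upstream of the TSS (chr4:135867708-135867907, plus strand): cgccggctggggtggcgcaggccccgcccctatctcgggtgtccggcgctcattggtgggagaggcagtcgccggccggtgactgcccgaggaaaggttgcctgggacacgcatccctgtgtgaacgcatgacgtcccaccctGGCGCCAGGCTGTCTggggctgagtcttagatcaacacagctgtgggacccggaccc
Id1, summit 7887 bp upstream of the TSS (chr2:152570178-152570377, plus strand): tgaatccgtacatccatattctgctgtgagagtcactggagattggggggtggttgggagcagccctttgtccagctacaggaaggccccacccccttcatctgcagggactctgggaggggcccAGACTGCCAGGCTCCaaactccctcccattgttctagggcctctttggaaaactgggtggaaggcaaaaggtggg

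The next 2 are the windows of the strongest peak upstream of Id1 and of a second strong peak farther upstream. Capitals mark the BMP-responsive SMAD site, in either orientation, and the E-box (CAGCTG).
Id1, summit 1043 bp upstream of the TSS (chr2:152577022-152577221, plus strand): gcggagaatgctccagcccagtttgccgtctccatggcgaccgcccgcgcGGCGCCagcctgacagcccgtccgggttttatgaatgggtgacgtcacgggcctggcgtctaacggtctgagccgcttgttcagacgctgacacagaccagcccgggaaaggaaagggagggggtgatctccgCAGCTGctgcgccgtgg
Id1, summit 6493 bp upstream of the TSS (chr2:152571572-152571771, plus strand): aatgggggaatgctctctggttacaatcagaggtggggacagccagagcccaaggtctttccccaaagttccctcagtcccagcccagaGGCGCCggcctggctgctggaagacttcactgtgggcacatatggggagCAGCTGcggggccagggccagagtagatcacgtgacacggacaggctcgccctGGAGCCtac

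The SMAD palindrome (GTCTAGAC), an inverted repeat of GTCT, is in capitals in a window from among the 10 strongest peaks of each list. The Mttp window lies at the peak ranked second after BMP6, which overlapped an exon, although these 200 bp do not. In it 30 of 189 words of 12 letters occurred more than once, so that part of it is repetitive sequence. The Csf1 window is intergenic and lies at the peak ranked ninth in vehicle-treated cells.
Mttp, summit 20247 bp downstream of the TSS (chr3:137816791-137816990, plus strand): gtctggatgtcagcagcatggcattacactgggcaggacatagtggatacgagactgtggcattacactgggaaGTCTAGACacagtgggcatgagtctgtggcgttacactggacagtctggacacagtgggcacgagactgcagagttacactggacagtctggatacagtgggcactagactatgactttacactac
Csf1, summit 16031 bp upstream of the TSS (chr3:107683737-107683936, plus strand): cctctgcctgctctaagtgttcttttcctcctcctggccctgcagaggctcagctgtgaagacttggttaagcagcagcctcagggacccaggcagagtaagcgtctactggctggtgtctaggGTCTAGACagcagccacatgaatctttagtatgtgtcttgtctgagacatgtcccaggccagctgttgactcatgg

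The last pair comes from among the sites with the largest changes of rank, a rise near Cops9 and a fall near Ampd3. Neither was the largest, which were at Daam1 and Mrtfa. Capitals mark the BMP-responsive SMAD site, the SMAD box (CAGACA) and the E-box. Not all such sites held these motifs, and the windows of the rise near Wwc2 and of the falls near Noct and Dhx34, not printed, held none of them.
Cops9, summit 2203 bp downstream of the TSS (chr1:92565983-92566182, plus strand): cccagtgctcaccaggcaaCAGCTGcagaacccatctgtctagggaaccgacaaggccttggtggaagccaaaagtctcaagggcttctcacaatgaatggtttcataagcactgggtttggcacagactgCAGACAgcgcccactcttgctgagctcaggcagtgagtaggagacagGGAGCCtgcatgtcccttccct
Ampd3, summit 14068 bp upstream of the TSS (chr7:110353151-110353350, plus strand): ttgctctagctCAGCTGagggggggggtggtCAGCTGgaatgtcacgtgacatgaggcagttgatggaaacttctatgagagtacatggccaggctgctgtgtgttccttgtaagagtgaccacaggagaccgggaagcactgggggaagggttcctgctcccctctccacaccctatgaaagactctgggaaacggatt

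Of the 15191 sites, 7008 held peaks of BMP6-stimulated cells only (46.1%, Wilson 95% interval 45.3 to 46.9), 5585 held peaks of both lists (36.8%) and 2598 held peaks of vehicle-treated cells only (17.1%, 16.5 to 17.7). A peak counted as shared when it overlapped a peak of the other list by at least 1 bp. The size of these classes depends on the lengths of the lists. With only the 8577 strongest BMP6 peaks, as many as the vehicle list has, both classes come out nearly equal by construction, and they held 29.5% and 27.5% of 11620 sites, so the counts alone do not say in which condition more sites were bound. Intervals of this kind cover counting error only, because peaks are not replicates, and a site without a peak is one where none passed the authors' reproducibility threshold (IDR, irreproducible discovery rate, at most 0.05), not one without reads. As the lists give signals and not reads, the depth at a site is unknown.

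The strongest sites were common to both conditions. Peaks were ranked within each list by signal, with rank 1 the strongest, because the signals of separate lists are on no stated common scale. All 100 strongest BMP6 peaks overlapped a vehicle peak, and 66 of them overlapped one of the 100 strongest vehicle peaks. Among the 1000 strongest, 969 BMP6 peaks had a vehicle peak and 990 vehicle peaks had a BMP6 peak. The strongest peak without a vehicle partner ranked 175 after BMP6, and the strongest without a BMP6 partner ranked 497 in vehicle. Peaks of 1 list only were weak and narrow: their median rank was 8684 of 12860 with a median width of 426 bp after BMP6, against 3483 and 651 bp for shared BMP6 peaks. In vehicle-treated cells the median rank was 6457 of 8577 and the median width 369 bp, against 3203 and 528 bp for shared peaks. They were mostly far from any peak of the other list, since 11.5% of the peaks found only after BMP6 and 14.9% of those found only in vehicle lay within 1 kb of one.

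The same few loci led both lists. The peak at the promoter of Skil, which encodes the SMAD corepressor SnoN, ranked 1 after BMP6 and 2 in vehicle. Its signal was 104077 and 81435 in both replicates after BMP6 and 89681 and 71304 in vehicle, and it ranked first in each BMP6 replicate and second in each vehicle replicate. The peak near Arrdc3, an arrestin-domain adaptor gene, ranked 3 after BMP6 and 1 in vehicle. Peaks near Cirbp, Dpcd, Loxl1 and Gadd45g were also among the 10 strongest of both lists, so 6 of 10 were common. Of the rest, the BMP6 list had peaks at Smad7 and Smad6, the inhibitory SMADs, which ranked 7 and 10 after BMP6 and 15 and 30 in vehicle. Pmepa1, a TGF-β-responsive inhibitor of SMAD signaling, had a peak at rank 6 after BMP6 and 28 in vehicle, and the exon of Mttp had one at 2 and 21. In vehicle the 10 strongest also held peaks near Cxxc5, Mok, Csf1 and Pax7. The one in Pax7 ranked 10 in vehicle as a single peak of 3630 bp, and the strongest of the several BMP6 peaks it lay over ranked 491. Signal grew with peak width in both lists, and the part of this split in the ranks was not tested.

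To ask which shared sites changed their place, the 5028 sites with exactly 1 peak of each list were ranked by each of the 4 replicate signals. Ranks were converted to normal scores, a scale on which 1 unit is 1 SD of the ranks' normal distribution, and tested with limma. Of these paired sites, 153 rose (3.04%) and 133 fell (2.65%) after BMP6 at a Benjamini-Hochberg adjusted p below 0.05, and 957 passed an unadjusted p below 0.05. At 1152 sites (22.9%) both BMP6 replicates ranked above both vehicle replicates, and at 1263 (25.1%) both ranked below. With 2 samples against 2, an exact two-sided permutation test of a single site cannot go below 0.333. The normal scores correlated more closely between replicates (Pearson's r over sites 0.819 for BMP6 and 0.766 for vehicle) than between conditions (0.594 to 0.64). These replicates had been selected by IDR for their agreement, which bears on the spread that limma used. For each site limma combined its own spread, with 2 residual degrees of freedom, with that of the other sites, to 24.8 in all. The SE and p-values below therefore rest largely on the spread shared over sites and not on that of the single site.

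**Figure D1:**
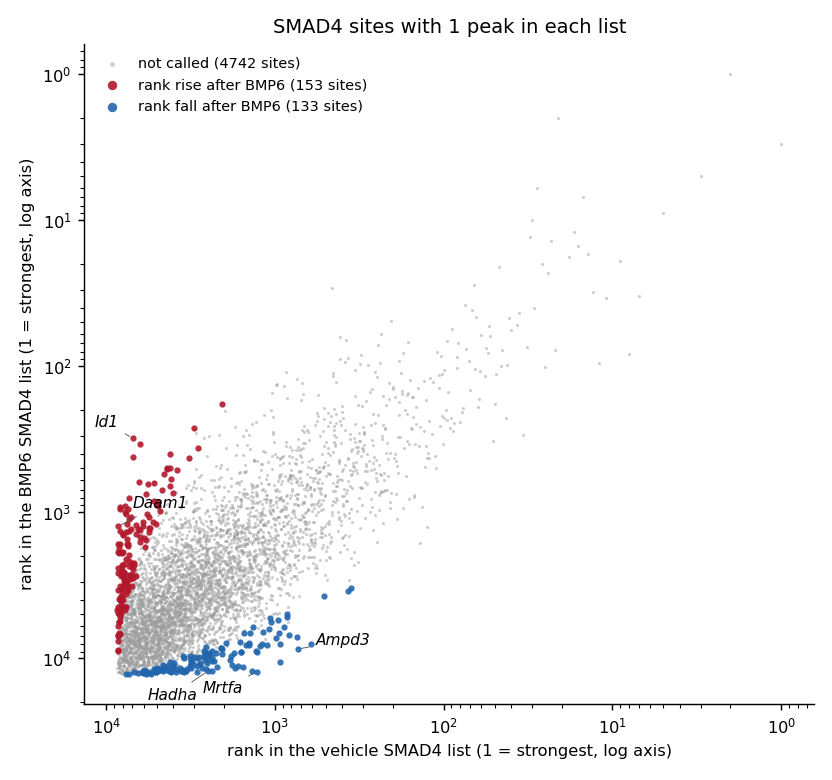
Rank of each of the 5028 paired SMAD4 sites in the vehicle list (x axis, log scale) and in the BMP6 list (y axis, log scale), with rank 1 the strongest. The 153 called rises (red) and 133 called falls (blue) lie at the edges of the cloud, and the strongest sites of both lists, at the upper right, were not called.

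Most called sites had peaks of unequal size. All 153 rises had a wider peak after BMP6, with median widths of 858 bp after BMP6 and 330 bp in vehicle, and 119 of 133 falls had a narrower one, with 358 bp and 594 bp. Over all paired sites the BMP6 peak was 634 bp wide at the median and the vehicle peak 519 bp, with a median ratio of 1.18 (95% interval 1.17 to 1.21), and 3399 of 5028 were wider after BMP6. The signal grew with the width of a peak, and the change of rank and the log ratio of widths had a Spearman correlation of 0.663 across the 5028 sites. Few called sites had peaks of similar extent: 94 of the 286 called sites had peaks that covered at least 50% of each other, and when paired sites were defined by that overlap limma called 0 of 4411, with 550 at an unadjusted p below 0.05. Likewise 0 of 2597 sites were called with an IDR of at most 0.01 in both lists, with 384 at an unadjusted p below 0.05. The summits were 59 bp apart at the median, 137 bp at rises and 93 bp at falls.

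Id1, a BMP target that encodes an inhibitor of basic helix-loop-helix factors, had the seventh largest rise. At the site 9285 bp upstream of its TSS, the BMP6 replicates had signals of 36787 and 13078 and the vehicle replicates 3974 and 2096. Replicate ranks in the text are over the whole list, except those marked as among or of 5028. At this site they were 185 and 843 after BMP6 and 6236 and 7504 in vehicle. Among the 5028 paired sites, whose ranks were tested, they were 127 and 619 after BMP6 and 4207 and 4682 in vehicle. Both BMP6 ranks lay far above both vehicle ranks, with a score difference of 2.79 ± 0.45 (SE, limma adjusted p = 0.000873), and the peak was 973 bp wide after BMP6 and 291 bp in vehicle. A second Id1 site, 2002 bp downstream of the TSS, ranked 1162 and 1495 in the BMP6 replicates and 5008 and 7500 in vehicle. It also rose, by 1.87 ± 0.45 (adjusted p = 0.015), but was no longer called without the first BMP6 or the second vehicle replicate.

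The other large rises lay at genes of many functions. The largest was in an intron of Daam1, a formin that acts in Wnt planar polarity signaling, where the list rank was 1254 after BMP6 and 8497 in vehicle and the score difference 3.31 ± 0.44 (limma adjusted p = 0.000338). Next came the promoter of Tada2b, a subunit of histone acetyltransferase complexes (3.24 ± 0.47), and an exon of the adenylate kinase gene Ak1 (3.21 ± 0.45), a site that is also 16803 bp upstream of Eng, the gene of the BMP coreceptor endoglin. The remaining rises among the 10 largest were near Smpx, Wwc2, Cops9, Aff3, Grhl1 and Rbx1, with differences between 2.70 and 2.96. At all 10 the vehicle peak had been among the weaker ones, at list ranks from 6956 to 8521 of 8577. In the Aff3 window 153 of 189 words of 12 letters occurred more than once, so that it is repetitive sequence in which reads may be hard to place.

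The largest falls were mirror images of these, with a BMP6 peak near the end of its list. In an intron of Mrtfa, a coactivator of serum response factor, the list rank was 12338 after BMP6 and 1269 in vehicle. Its replicates ranked 4959 and 4988 of 5028 after BMP6 and 773 and 1727 in vehicle, with a difference of -3.02 ± 0.44 (limma adjusted p = 0.000418). The site upstream of Ampd3, the AMP deaminase gene, fell by 2.47 ± 0.44 (adjusted p = 0.00172), from list rank 731 in vehicle to 8655 after BMP6. The other 8 lay near Tpbgl, Rpl32, Hadha, Noct, Dhx34, Akap6, Emp3 and Skp2, with differences from -2.93 to -2.41. Of these 20 sites with the largest changes, only Dhx34 (without the first BMP6 replicate) and Skp2 (with the 50% overlap) lost their call under an alternative in which they could be tested. Of the 20, only Skp2 had peaks that covered 50% of each other.

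The 10 strongest sites listed in BMP6-stimulated cells alone were led by a peak near the BMP target Id1. That peak lay 3362 bp downstream of the Id1 TSS, with ranks of 164 and 208 in the BMP6 replicates and no vehicle peak. The promoter of Ccn2, a matricellular gene that responds to TGF-β and YAP, had a peak at rank 443 of the list (388 and 588 in the replicates), and a peak at rank 475, for which Smad7 has the nearest TSS, lay 160743 bp downstream of that TSS, beyond the end of Smad7 and in an intron of the translation factor gene Ctif. The others were near Exog (238), Zbtb1 (360), Il22ra2 (367), Irf2bpl (405), Olfml2b (445), Nmt2 (463) and Syk (528), and 9 of these 10 overlapped a pSMAD1/5/9 peak of BMP6-stimulated cells. In vehicle-treated cells the strongest peaks without a partner were near Egfl6 (497), Creld1 (548), St3gal5 (568), Hhat (660) and Tmem253 (662), followed by A930018P22Rik, Tspan17, Hcfc1, Lrtm1 and Sema6a. Of these 10, 6 overlapped a pSMAD1/5/9 peak of BMP6-stimulated cells. The counts of 9 and 6 come from peaks of unequal strength, at list ranks of 175 to 528 after BMP6 and 497 to 979 in vehicle. When each list was divided by signal into 4 groups of equal size, the strongest group gave similar shares. They were 68.4% for peaks found only after BMP6 and 53.6% for those found only in vehicle. The difference between the counts was not tested. At some of the 10 vehicle peaks the replicates were far apart. The vehicle replicates ranked 292 and 1985 at Creld1, and 302 and 3251 at Hhat.

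Among 16 genes known as BMP feedback regulators and direct targets, 15 had a SMAD4 peak within 20 kb of the gene body after BMP6 and 12 in vehicle. Their peaks numbered 79 and 42, with more after BMP6 at 12 genes and fewer at none. For comparison, 8557 and 6698 of all 21603 genes had a peak, with more peaks after BMP6 at 5221 and fewer at 1688. Ranks at genes were also compared as a percent of the list's length, so that 1% is the strongest hundredth of a list. On this scale the strongest peak stood higher after BMP6 at 11 of the 12 genes with peaks in both lists and lower at 1, against 3846 and 1930 over all genes with both. By rank number, which runs further in the longer BMP6 list, it was better at 10 and worse at 2, against 2326 and 3443 over all genes, so that the direction over all genes turned with the scale while that of the BMP targets did not. These are counts, with no test, and the list was chosen with earlier results in view.

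Within that list the Id genes, which encode inhibitors of differentiation, had better ranks after BMP6. At Id1, the peak 1043 bp upstream of the TSS ranked 24 and 103 in the BMP6 replicates and was 2343 bp wide, and it covered a pair of vehicle peaks, the stronger of which ranked 657 and 658 in the replicates and was 912 bp wide. At Id2, the peak 1644 bp upstream of the TSS ranked 420 and 209 after BMP6 and 4382 and 1089 in vehicle, a difference of 1.44 ± 0.47 that missed the threshold (limma adjusted p = 0.073). The BMP6 replicates thus ranked above both vehicle replicates at Id1 and Id2. At Id1 the single BMP6 peak was the wider one and the site was not paired, so the difference was not tested. At Id3, the peak 254 bp downstream of the TSS ranked 413 and 199 after BMP6 and 1142 and 1038 in vehicle (adjusted p = 0.33). Id4 had a peak only in the BMP6 list, at rank 5150 and 14700 bp downstream of its TSS. Its window holds the SMAD box 18 times, so that, as at Aff3, it is repetitive sequence in which reads may be hard to place.

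**Figure D2:**
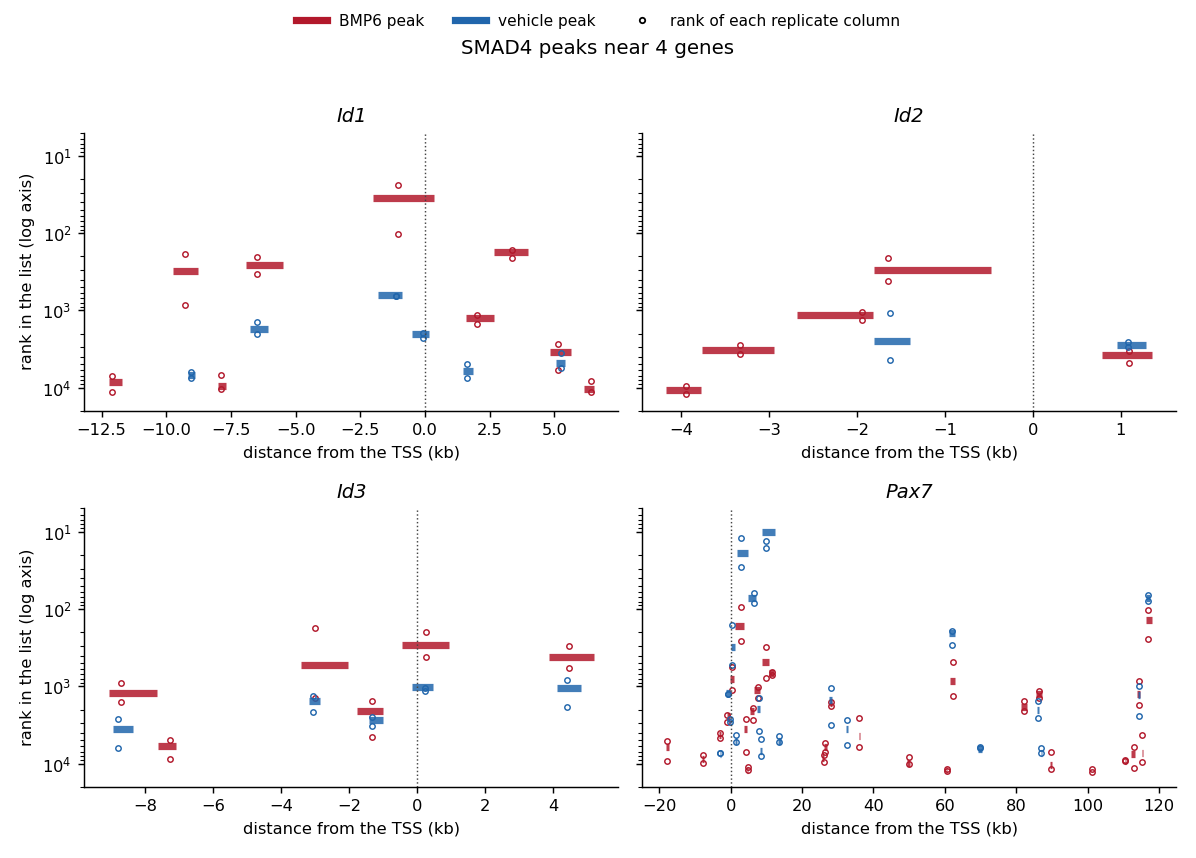
SMAD4 peaks near Id1, Id2, Id3 and Pax7 by distance from the TSS in kb (x axis) and list rank (y axis, log scale, strongest at the top). Bars span the BMP6 (red) and vehicle (blue) peaks and circles give the rank of each replicate column; the strongest Id peaks were BMP6 peaks and the 2 highest bars at Pax7 were vehicle peaks.

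The feedback inhibitors were bound strongly in both conditions. At Smad6, the promoter peak had signals of 71079 and 41400 after BMP6 and 45712 and 30307 in vehicle, with replicate ranks of 10 and 20 and of 32 and 28. At Smad7, the promoter peak ranked 14 and 7 after BMP6 and 23 and 15 in vehicle. Neither differed in the test (limma adjusted p = 0.797 and 0.841), but Smad7 had further peaks after BMP6 without a vehicle partner 4274, 8381 and 18739 bp downstream of its TSS, at list ranks of 2056, 1076 and 1514. Atoh8, a BMP-responsive bHLH factor, had its strongest peak at 208 and 487. The corepressor gene Ski had 17 peaks after BMP6 and 10 in vehicle, with the strongest at 222 and 152, and its site 58411 bp downstream of the TSS fell by 1.58 ± 0.44 (adjusted p = 0.0348), a call that did not survive the omission of either BMP6 replicate or of the second vehicle replicate. Bambi, the decoy receptor, went from 2590 in vehicle to 5782 after BMP6 (adjusted p = 0.47). Nog, an antagonist of BMPs, and Fst, an antagonist of activin, had peaks in the BMP6 list only, at ranks of 4402 and 9230, and Grem1 had none in either.

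Of 17 receptor and SMAD genes, 14 had peaks after BMP6 and 11 in vehicle, with 31 and 20 peaks. For comparison, 8557 and 6698 of all 21603 genes had peaks, and the BMP6 list held 1.5 times as many peaks as the vehicle list. The counts of the gene lists below stand beside the same values. Besides the Eng site given above, sites in introns of Smad3, the TGF-β effector, and Acvr2b, an activin and BMP type II receptor, rose, by 1.60 ± 0.46 (limma adjusted p = 0.04) and 1.58 ± 0.44 (adjusted p = 0.0339). Both were lost without either BMP6 replicate or without the second vehicle replicate, where the Smad3 difference was 1.03. Of 8 BMP-family ligand genes, 4 had peaks after BMP6 and 2 in vehicle.

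At genes that respond to TGF-β the ranks went both ways. Of 14, 13 had peaks after BMP6 and 11 in vehicle, with 60 and 35 peaks, but their strongest peak stood higher after BMP6 at 5 genes and lower at 6, on either scale. At Ccn2, the peak 1166 bp downstream of the TSS ranked 601 and 1183 in the BMP6 replicates, and the vehicle peak it overlapped ranked 3836 and 5348. At Tgfb1, the strongest peaks ranked 178 after BMP6 and 1098 in vehicle. A site 18800 bp upstream of Tgfb3 fell by 1.67 ± 0.43 (limma adjusted p = 0.023), which was lost without either BMP6 replicate or the first vehicle replicate. In an intron of Ldlrad4, a TGF-β-induced inhibitor of SMAD signaling, a site rose by 1.52 ± 0.44 (adjusted p = 0.0409), and this too was lost without either BMP6 replicate or the second vehicle replicate. Tgfb2 had 4 peaks after BMP6, the strongest at rank 1479, and none in vehicle.

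At 17 Notch pathway genes there were 59 peaks after BMP6 and 32 in vehicle, more at 11 genes and fewer at 2, in a BMP6 list that held 1.5 times as many peaks. The strongest peak stood higher after BMP6 as a percent of the list at 6 genes and lower at 6, and by rank number at 5 and 7. The effector gene Hes1, a transcriptional repressor, had a peak 1195 bp upstream of its TSS with ranks of 464 and 480 in the BMP6 replicates and 1340 and 3798 in vehicle. The related Hey1 had a promoter peak at 240 and 264 and at 344 and 867 (limma adjusted p = 0.636), so that both BMP6 replicates ranked higher at both genes. In contrast, the strongest Heyl peak ranked 314 and 174 after BMP6 and 203 and 9 in vehicle, where the replicates overlapped, and the Notch ligand gene Jag2 had list ranks of 3052 and 340 for its strongest peaks. Sites of Hes6 and Notch3 rose, by 1.90 ± 0.48 (adjusted p = 0.0195) and 2.23 ± 0.49 (adjusted p = 0.00787), and a site of Notch2 fell by 1.65 ± 0.44 (adjusted p = 0.0273). None of these calls was stable. That of Notch3 was lost without the second vehicle replicate (1.43), with log2 signals in place of ranks (1.00 median-centred and 1.28 quantile normalised, in log2 units) and with the 50% overlap. That of Hes6 was lost without the first BMP6 replicate (1.82) or the first vehicle replicate (1.17). That of Notch2 was lost without the first BMP6 replicate or either vehicle replicate (-1.68 to -1.32), with quantile normalised signals and with the 50% overlap.

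At myogenic genes the strongest peaks mostly stood lower after BMP6. All 16 had peaks after BMP6 and 14 in vehicle, with 85 and 60 peaks, Myf5 and Myf6 sharing theirs, but the strongest peak stood higher after BMP6 at 4 genes and lower at 10 as a percent of the list, and better at 3 and worse at 11 by rank number. Over all genes the first scale gave more genes higher than lower and the second the reverse. No paired site of these genes passed the test in the direction of a fall or a rise. Pax7 had more SMAD4 peaks than any other gene in the BMP6 list, 28 after BMP6 and 19 in vehicle. The peak in its intron 10002 bp downstream of the TSS ranked 16 and 13 in the vehicle replicates with a width of 3630 bp, and the strongest BMP6 peak within it ranked 792 and 312. A second vehicle peak, 2889 bp downstream, ranked 29 and 12, and the BMP6 peak at 2920 bp ranked 257 and 94. At both places all vehicle replicates ranked above all BMP6 replicates, but 1 vehicle peak lay over several BMP6 peaks, so that these sites were not paired and the difference was not tested.

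The promoter peak of Myod1 stood at almost the same place in both lists, in the top 16.5% after BMP6 and 15.6% in vehicle (limma adjusted p = 0.794). The strongest peaks of the MEF2 genes Mef2a and Mef2d were in the top 11.6% and 15.7% after BMP6 and 8.38% and 7.28% in vehicle, and that of the homeobox gene Six4 in the top 49.6% and 19.8%. Those that stood higher after BMP6 were Itga7 (0.327% after BMP6 and 1.14% in vehicle) and Megf10 (3.63% and 14%), genes of MuSC surface proteins, Myog (17.9% and 36.7%), the differentiation factor, and Des (10.1% and 11.7%), the desmin gene. Pax3 and Mef2c had peaks in the BMP6 list only, at ranks of 7663 and 12020.

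**Figure D3:**
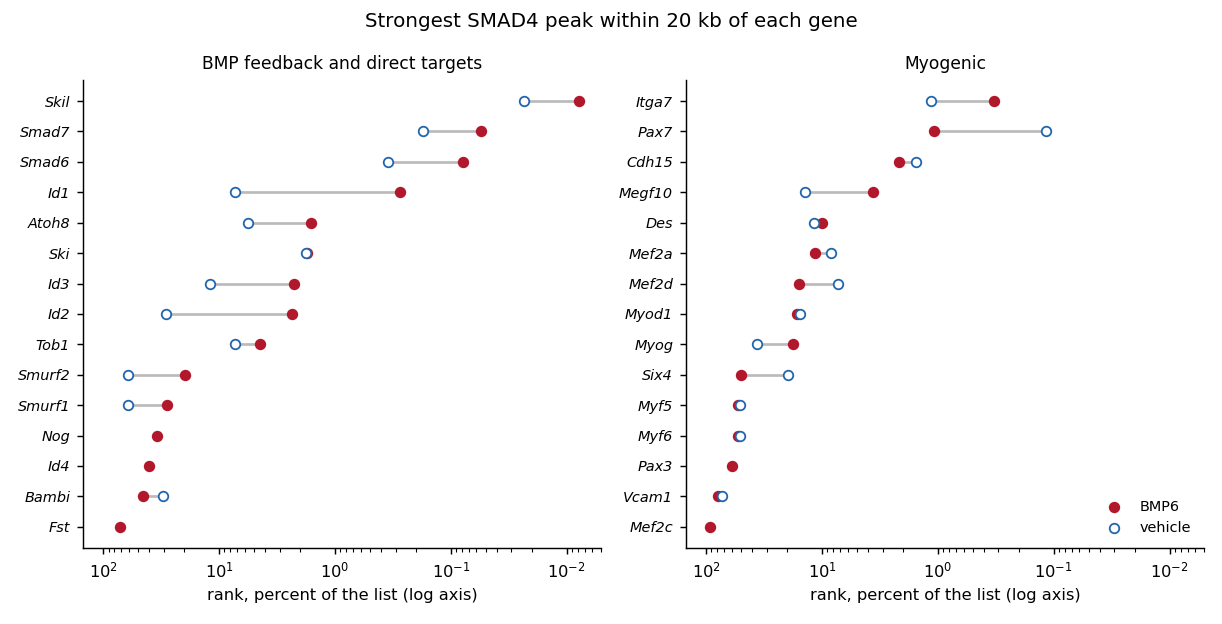
Place in its list (x axis, rank as a percent of the list's length, log scale, strongest at the right) of the strongest SMAD4 peak within 20 kb of each gene (rows) of the BMP feedback and myogenic lists, with filled points for BMP6, open points for vehicle and a line between them; 1 myogenic gene is not drawn. At 11 of 12 BMP feedback genes with peaks in both lists the BMP6 peak stood higher, and at 10 of 14 myogenic genes of the whole list it stood lower, against 3846 higher and 1930 lower over all genes.

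The last lists were of osteogenic and AP-1 genes, where more peaks after BMP6 also stand beside the longer list. Of 11 osteogenic and mesenchymal genes, 7 had peaks after BMP6 and 4 in vehicle. Dlx2, a homeobox gene, had its strongest peak at list ranks of 109 and 857 (replicates 125 and 96 after BMP6, 880 and 993 in vehicle), and a Runx1 site 202251 bp into the gene rose by 1.66 ± 0.47 (limma adjusted p = 0.0388), which was lost without the first BMP6 (1.07) or the second vehicle replicate. All 8 AP-1 genes had peaks in both lists, 32 and 18, and the strongest peak stood higher after BMP6 at 7 as a percent of the list and at 6 by rank number. The promoter site of Jund rose by 1.98 ± 0.43 (adjusted p = 0.00744), with replicate ranks of 1507 and 2140 after BMP6 and 7046 and 7276 in vehicle, and was lost only without the first BMP6 replicate. At Junb, the strongest peaks ranked 309 and 865.

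Phosphorylated receptor SMADs followed SMAD4 strength. A pSMAD1/5/9 peak of BMP6-stimulated cells overlapped 64.5% of the shared BMP6 peaks (95% interval 63.2 to 65.7), 24.5% of the peaks found only after BMP6 (23.5 to 25.5) and 20% of those found only in vehicle (18.5 to 21.6). The peaks found only after BMP6 were weaker, and in 4 groups of equal size by signal, from the strongest to the weakest, their share was 68.4%, 40.1%, 21.1% and 11.3%, against 84.1%, 56.8%, 38.4% and 28% for shared peaks of the same group. Peaks found only in vehicle, grouped in the same way within their own list, had 53.6%, 39.1%, 19.7% and 12.6%, close to the peaks of BMP6 only in the last 3 groups. The pSMAD1/5/9 peaks of vehicle-treated cells overlapped 13.4% of the shared BMP6 peaks, 1.53% of the peaks found only after BMP6 and 2% of those found only in vehicle.

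At sites of similar strength in vehicle-treated cells, pSMAD1/5/9 was listed more often where SMAD4 ranked higher after BMP6. Paired sites were divided by vehicle rank into 4 groups of equal size. As the vehicle rank is held, the sites that rank above are those with the stronger SMAD4 peak after BMP6, so this is again a relation with SMAD4 strength in BMP6-stimulated cells. In the strongest group, the share with a pSMAD1/5/9 peak of BMP6-stimulated cells was 93.6% where both BMP6 replicates ranked above both vehicle replicates, 90.4% where the replicates overlapped, and 84.7% where both ranked below. In the second group it was 84.7%, 71% and 58.4%, in the third 76.3%, 52.9% and 35.7%, and in the weakest 48.3%, 32.4% and 21.8%. The order held in each group, on 133 to 717 sites a share, and the intervals of the highest and the lowest share did not overlap in any of the 4 (88.6 to 96.5 and 81.2 to 87.7 in the strongest). BMP6 peaks were also wider where they ranked higher (639 bp and 334 bp at the median in the weakest group), which gives more room for an overlap. When only the 200 bp around the summit counted, a setting chosen after seeing the data, the shares in the weakest group were 47.1%, 31.8% and 21.8%, and those in the strongest 92.3%, 89.3% and 84.3%. Among the called sites, 55.6% of the rises (47.6 to 63.2) and 46.6% of the falls (38.4 to 55.1) overlapped a pSMAD1/5/9 peak of BMP6-stimulated cells, with intervals that overlapped. Over all paired sites the share was 62.5% (61.1 to 63.8), so called rises did not hold such a peak more often than paired sites as a whole.

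**Figure D4:**
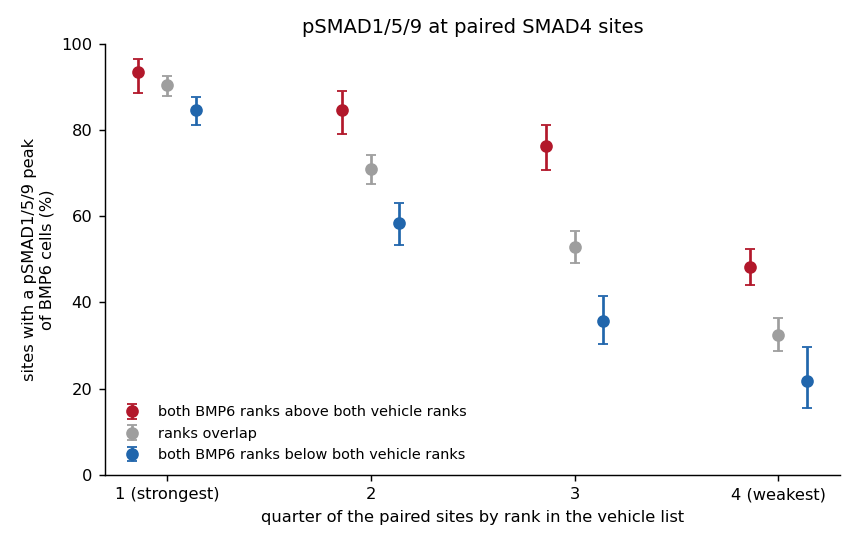
Share of paired SMAD4 sites with a pSMAD1/5/9 peak of BMP6-stimulated cells (y axis, percent, Wilson 95% intervals) by vehicle rank in 4 groups of equal size (x axis, strongest first) and by whether both BMP6 replicates ranked above, overlapped or ranked below both vehicle replicates. In each of the 4 groups the share was highest where BMP6 ranked above and lowest where it ranked below, 48.3% and 21.8% in the weakest.

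Nearly all SMAD4 sites lay in acetylated chromatin. An H3K27ac peak of the same condition overlapped 99.4% of the shared BMP6 peaks, 92.6% of those found only after BMP6 and 90.8% of those found only in vehicle. Peaks near a TSS, within 2 kb on either side, made up 32.9% of the shared BMP6 peaks, 29.9% of the peaks found only after BMP6 (28.8 to 31) and 28.3% of those found only in vehicle (26.6 to 30.1), while intergenic peaks made up 31.7%, 35.3% and 34.3%.

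DNA sequence at the summits differed between the classes. The SMAD box (CAGACA) was searched, as were all motifs, on both strands of the 200 bp centred on the summit, unless stated otherwise. It was found at 29.4% of shared BMP6 peaks, 25.7% of peaks found only after BMP6 and 21.4% of those found only in vehicle. The share was 22% in H3K27ac windows of BMP6-stimulated cells and 16.3% in windows placed every 20 kb along the genome. The difference between the peaks of BMP6 only and of vehicle only was 4.3 percentage points (95% Newcombe interval 2.39 to 6.15), and 8.31 points (3.97 to 12.3) among the peaks above the median signal of their list. These classes also differed in reproducibility, since 28.7% of the peaks of BMP6 only and 12.6% of those of vehicle only had an IDR of at most 0.01. The part of this in the motif shares was not tested. At called rises the share was 33.3% and at called falls 15%, a difference of 18.3 points (8.37 to 27.6), and with the vehicle summit the falls had 17.3%. Rises were also the stronger BMP6 peaks, with a median list rank of 2238 against 10785 for falls, and the box was more common at strong peaks, at 49 of the 100 strongest of the BMP6 list and 40 of the vehicle list.

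The SMAD palindrome (GTCTAGAC) was rare but followed the same order, at 1.61% of shared BMP6 peaks, 0.97% of peaks found only after BMP6 and 0.269% of those found only in vehicle, against 0.26% of H3K27ac windows and 0.148% of genome windows. It was at 12 of the 100 strongest BMP6 peaks and 16 of the 100 strongest vehicle peaks. Matches lay close to the summit: in the 1000 strongest BMP6 peaks, 16% had a SMAD box in the 50 bp that start at the summit toward higher coordinates and 6% in the bin centred 475 bp away. The BMP-responsive SMAD site (GGCGCC or GGAGCC) was at 29.4%, 27.6% and 24.7% of the same classes, with 19% in H3K27ac windows and 8.46% in genome windows, and its difference of 2.88 points (0.897 to 4.82) between the peaks of 1 list only was not separated from 0 with windows of 100 bp (-0.281 to 2.89). The composite element was at 0.264% of BMP6 peaks, 0.138% of H3K27ac windows and 0.0445% of genome windows. Among the BMP6 peaks near the listed genes it was found at Id1, Id2, Id3 and Skil, and the windows of Id1 and Id3 are printed above.

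The E-box CAGCTG, to which myogenic bHLH factors such as MYOD1 bind, went in the opposite direction. It was at 32.5% of shared BMP6 peaks, 26.2% of peaks found only after BMP6 and 29.8% of those found only in vehicle, against 19.8% in H3K27ac windows and 7.15% in genome windows, and the difference between the last classes of peaks was -3.51 points (-5.57 to -1.49), or -8.41 points (-13.2 to -3.8) above the median signal. At rises and falls it was at 30.1% and 34.6%, a difference of -4.52 points whose interval included 0 (-15.3 to 6.25). AP-1 sites (TGACTCA or TGAGTCA) were at 15.9%, 14.4% and 12.2% of the classes, against 10.4% in H3K27ac windows and 3.18% in genome windows. Of the 10 largest rises, 5 had a SMAD box and 2 an E-box at the BMP6 summit, as in the Cops9 window above, and of the 10 largest falls 1 had a SMAD box and 6 an E-box, as in the Ampd3 window. These matches are letters in a window, and the median GC content of the windows was 56% for shared BMP6 peaks, 54.5% for peaks of BMP6 only and 54% for peaks of vehicle only, against 50% for H3K27ac windows and 41.5% for genome windows. The part of base composition in the motif shares was not tested.

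**Figure D5:**
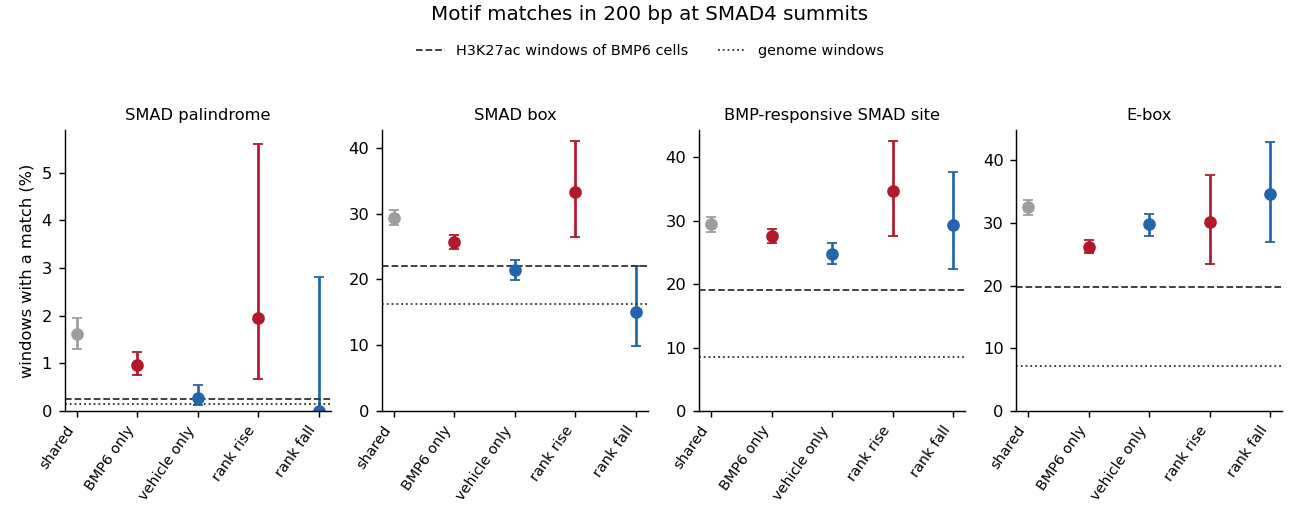
Share of 200 bp summit windows with each of 4 motifs (y axes, percent, Wilson 95% intervals, scaled per motif) in shared peaks, peaks of BMP6 only, peaks of vehicle only, and paired sites with a called rise or fall of rank. Lines give the share in H3K27ac windows and genome windows; the SMAD box was at 33.3% of rises and 15% of falls.

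Over all genes, 5776 had a SMAD4 peak within 20 kb in both lists, 2781 in the BMP6 list only and 922 in the vehicle list only. Of those in the BMP6 list only, 142 had at least 3 peaks, among them Exog with 4 peaks (strongest at list rank 238), Vim with 4 (3705), the gene of vimentin, and Sp7 with 3 (2063), an osteoblast transcription factor. Some of the 142 are neighbours that share peaks, such as Tafa3, Ppm1j, Rhoc and Mov10 (all with their strongest at 1482), so they are not 142 separate loci. Of those in the vehicle list only, 9 had at least 3, namely Mcu, Sypl1, Tha1, Cltb and Virma and the neighbouring pairs Hspa1a and Hspa1l, heat shock genes, and Mt1 and Mt2, metallothionein genes, which share their peaks. Their strongest peaks had list ranks of 1453 to 6012 of 8577. These genes were named after their values had been seen.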

How the data were processed

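CUT&Tag for SMAD4 was made from MuSCs with BMP6 or vehicle, 2 biological replicates each, and samples were grouped by the antibody and treatment in their labels. The authors brought the libraries of an antibody to the same number of reads, mapped these to GRCm39 (Bowtie2 2.5.4), filtered the alignments (SAMtools 1.21), called peaks per replicate with JAMM and combined replicates by IDR (at most 0.05). The 6 deposited lists give the signal of the consensus peak and of each replicate as a score without a fixed range, and the authors' IDR of a peak as −log10. They also give summit offsets in bp. Read counts were not used here, so depth is unknown and the 2 replicates limit the precision. The replicate columns carry no replicate number, and 44 replicate columns (positions, summits, and signals of other lists) were not used. The control libraries made with no primary antibody, 2 in number, were not used here.

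Positions were made 1-based. Genes were the canonical transcripts of 21603 protein-coding GENCODE genes on chromosomes 1 to 19 and X. Paired sites were tested with limma 3.58.1 in R 4.3.3 on normal scores of ranks, with Benjamini-Hochberg adjustment over all 5028 sites. Shares have Wilson intervals and differences of shares Newcombe intervals, both at 95% (scipy 1.17.1, Python 3.11.15), and medians have intervals from order statistics. The procedures were tested on simulated data. Named genes were those nearest to the 10 largest rises and falls with non-overlapping replicate ranks, to the 10 strongest peaks of each list and to the 10 strongest without a partner, and 8 gene lists. Values of a few genes are not reported here. The members and lists were chosen with earlier results of these data known. Alternatives were the overlap, the IDR, equal list lengths, log2 signals, autosomes, windows, the TSS window, gene assignment and each replicate left out.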

Additional observations from a re-analysis of the deposited data

How the results depend on the processing

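No paired analysis was possible because the replicate columns carry no replicate number. Beside 153 rises and 133 falls, omission of 1 replicate column gave 70 to 150 rises and 52 to 95 falls (70 and 65 without the first BMP6 column, 75 and 52 without the second, 77 falls without the second vehicle column), with the lone column assumed to vary like the other group. Median-centred log2 signals gave 203 falls. An overlap of 50% of both peaks gave 0 rises and 0 falls among 4411 sites, with 550 at an unadjusted p below 0.05 in limma and a smallest adjusted p of 0.0678. An IDR of 0.01 in both lists gave 0 and 0 among 2597 sites, with 384 and 0.0974. Of the 286 called sites, 94 and 15 entered these fits. Sites with non-overlapping replicates numbered 1714 to 1849 above and 1871 to 1977 below with 1 column omitted, where fewer columns overlap by construction, and 559 and 652 with the stricter IDR. For 31 named called sites, 241 values kept their call, 40 lost it and none changed direction.

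The share of sites in the BMP6 list only was 49.6% with the 50% overlap, 50.1% with the stricter IDR, 29.5% with lists of equal length and 29.6% to 30.2% when those lengths were set without 1 BMP6 column. For the vehicle list only it was 24.5%, 9.99%, 27.5% and 27.7% to 28.3%. With the 50% overlap the median width ratio was 1.12 and the summit gap 56 bp. A TSS window of 1 kb gave 26.6% of BMP6-only and 25.1% of vehicle-only peaks. Overlap with pSMAD1/5/9 was 21% of BMP6-only and 56.5% of shared peaks when 50% of the SMAD4 peak had to be covered, 50.5% and 82.1% with the stricter IDR, and 62.9% of shared peaks for the 200 bp around the summit, chosen after seeing the data. With the stricter IDR, H3K27ac covered 98.9% of BMP6-only and 99% of vehicle-only peaks. The cause of these shifts was not tested. The motif differences and the gene counts kept their side of 0 or stayed within 1.5 times. With 2 replicates a condition and no read counts, unequal enrichment or usable reads between libraries, whose total reads the authors made equal, cannot be told apart from unequal binding.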

Other observations

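The X chromosome stood apart in the SMAD4 lists. It held 477 peaks after BMP6 and 262 in vehicle, a ratio of 1.82, while the ratio of the other chromosomes lay between 1.36 and 1.64. Of its BMP6 peaks 23.7% overlapped a vehicle peak and of its vehicle peaks 44.3% overlapped a BMP6 peak, both lower than on any autosome.

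Several motifs of other factor families were also more common at SMAD4 summits than in H3K27ac windows of BMP6-stimulated cells. The SP/KLF motif (GGGCGG) was at 27.7% of shared BMP6 peaks, 23% of peaks of BMP6 only and 20.4% of peaks of vehicle only, against 10.6% in H3K27ac windows and 1.92% in genome windows. The ETS motif (CCGGAA) was at 7.47%, 7.35% and 7.51%, against 4.51% and 1.5%, and the cAMP response element (TGACGTCA) at 1.03%, 0.842% and 0.77%, against 0.401% and 0.108%. The RUNX motif (TGTGGT) was at 21.1%, 21.9% and 20%, against 19.2% and 14.1%, and the TEAD motif (GGAATG) at 15.9%, 14.3% and 13.3%, against 12.4% and 10.8%.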
